A study of Mus musculus with 6 samples.

Results

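S100 proteins are small calcium-binding proteins that bind and regulate other proteins inside the cell, and several are released and act as danger signals. Each usually works as a dimer, and calcium exposes the surface through which it grips a partner such as an annexin, a myosin or a receptor. In the artery wall S100 genes are read as marks of infiltrating myeloid cells (S100a8, S100a9), of fibroblasts and altered smooth muscle (S100a4) and of calcium handling in muscle (S100a1). The 9 genes described here, S100a1, S100a4, S100a6, S100a8, S100a9, S100a10, S100a11, S100a13 and S100a16, were taken by symbol from the 27815 genes measured in mouse aorta. All 9 lie on chromosome 3 (GRCm38), between bases 90511034 and 93564643, and 8 of them passed the filter on low values.

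Polyadenylated RNA of C57BL/6 aortas was sequenced in 6 libraries, 2 in each of 3 groups. ApoE libraries came from ApoE-/- mice with calcified plaques, labelled 16 months old and fed chow. CKD libraries came from mice with chronic kidney disease and calcified media: at 8 weeks the poles of the left kidney were cut away, the right kidney was taken out 1 week later, and a diet with 2% phosphate and drinking water with 0.45% NaCl followed for 4 weeks. The label gives these animals an age of 16 months, which that schedule does not reach, so their age is uncertain. Ctrl libraries came from wild-type mice labelled 2 months old. Genotype and age differ together between ApoE and Ctrl, so their effects cannot be told apart, and neither sham surgery nor an aged wild type is among the groups compared here. Whether a library stands for its own animal or for a pool is not given by the labels, so each SD and p measures only the spread between libraries, which may be technical.

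Levels are FPKM (reads relative to exon length and to the reads of the library). Library size, recovered from the steps between low values, ran from 14442428 reads in CKD2 to 16639622 in Ctrl1. Differences are in log2(FPKM + 1), with a standard error (SE) from limma, and a gene was called when its Benjamini-Hochberg adjusted p over all 14074 genes tested was below 0.05. Apoe, the deleted gene, stood at 13.2 and 11.4 FPKM in ApoE, 1410 and 1447 in CKD, and 756 and 627 in Ctrl. The tissue carried smooth muscle transcripts in every library, with Acta2, smooth muscle actin, at 493.5 and 437 FPKM in ApoE, 2393 and 4527 in CKD, and 6034 and 5402 in Ctrl. Bulk tissue cannot separate fewer cells of a type from less RNA per cell.

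S100a1, called higher in ApoE than in Ctrl, was the only S100 gene of the 9 that passed the test in any comparison, in an aorta in which much of the transcriptome changed. By limma, 1 of the 8 tested members was called in ApoE versus Ctrl, where 44.1% of all genes were, and S100a1 alone had an unadjusted p below 0.05, as 53.6% of all genes had. In CKD versus Ctrl 0 of 8 were called, where 5.44% of all genes were, and S100a1 and S100a13 had an unadjusted p below 0.05, as 30% of all genes had. In ApoE versus CKD 0 of 8 were called, where 39.7% of all genes were, and 0 had an unadjusted p below 0.05, as 50.1% of all genes had. The members' median difference was 0.50 in ApoE versus Ctrl, 0.27 in CKD versus Ctrl and 0.24 in ApoE versus CKD, beside -0.07, -0.03 and -0.04 over all genes tested. ApoE versus Ctrl and CKD versus Ctrl share the Ctrl libraries.

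**Figure D1:**
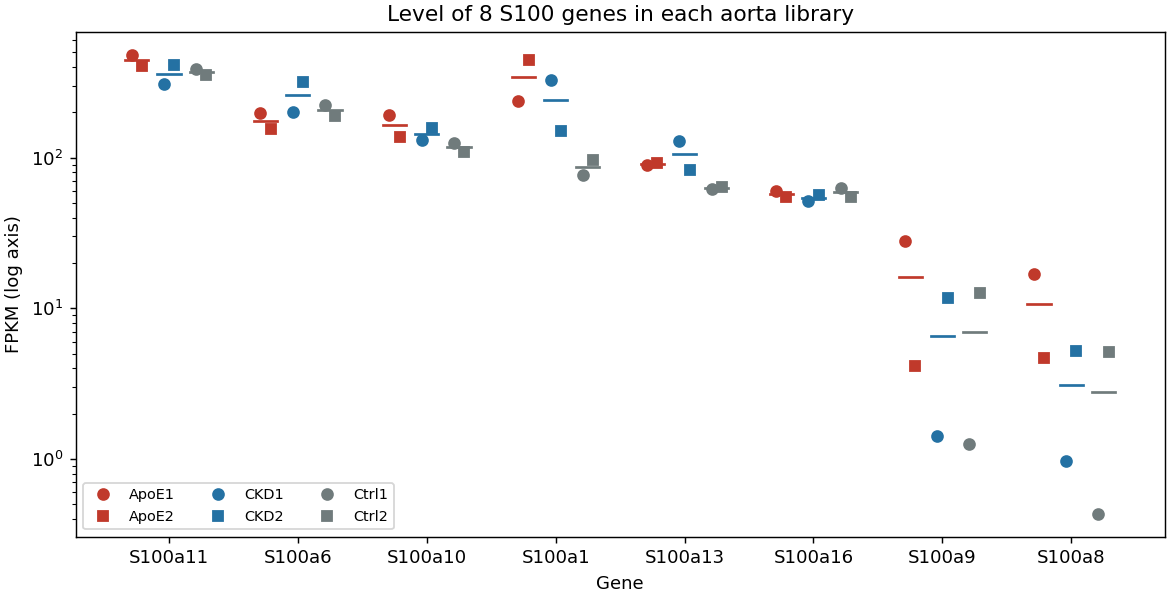
FPKM on a log axis for the 8 tested S100 genes, with a point for each library (circle, replicate 1; square, replicate 2) and a short line at each group's mean. S100a11 is at 306 to 478 FPKM in every library, while S100a8 spans 0.433 to 16.8 and S100a9 1.27 to 28.0 FPKM, with wide gaps within each group.

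S100a11, a partner of annexin A1, was the most abundant member in each group. It measured 478 and 407 FPKM in ApoE, 306 and 413 in CKD, and 388 and 352 in Ctrl. The CKD libraries bracketed the Ctrl libraries, and the ApoE libraries lay above Ctrl and overlapped CKD. The differences were 0.26 (SE 0.22) for ApoE versus Ctrl, -0.06 (SE 0.22) for CKD versus Ctrl and 0.31 (SE 0.22) for ApoE versus CKD, with limma adjusted p of 0.378, 0.885 and 0.300.

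S100a6, or calcyclin, which binds the ubiquitin ligase adaptor Cacybp, measured 197 and 155 FPKM in ApoE, 202 and 319.7 in CKD, and 224 and 189.7 in Ctrl. The ApoE libraries lay below CKD without overlap, which no other member did and 38% of all genes did, and CKD2 stood above all the others. ApoE versus CKD differed by -0.54 (SE 0.27, limma adjusted p = 0.167), and by -0.87 with CKD1 left out (limma adjusted p = 0.0368). The direction of CKD versus Ctrl, 0.30 (SE 0.27), turned to -0.03 without CKD2.

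S100a10, which pairs with annexin A2 at the cell surface and has lost the ability to bind calcium, measured 193 and 136 FPKM in ApoE, 132 and 156 in CKD, and 125 and 108 in Ctrl. Both disease groups lay above Ctrl without overlap, by 0.47 (SE 0.22, limma adjusted p = 0.135) in ApoE and 0.30 (SE 0.22, limma adjusted p = 0.404) in CKD. Of the 8 members, 4 lay above Ctrl without overlap in ApoE (S100a1, S100a10, S100a11 and S100a13), against 36.4% of all genes, and 3 did in CKD (S100a1, S100a10 and S100a13), against 29.1% of all genes.

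S100a16, a widely expressed member, had the narrowest range of the 8, at 60.5 and 54.4 FPKM in ApoE, 51.7 and 56.4 in CKD, and 63.1 and 55.0 in Ctrl. Its highest library was 1.22 times its lowest over all 6. The differences were -0.04 (SE 0.15) in ApoE and -0.12 (SE 0.15) in CKD against Ctrl (limma adjusted p = 0.857 and 0.616), and the sign of the ApoE value changed with the scaling of the libraries, to 0.039 and 0.080.

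S100a6, S100a10, S100a11 and S100a16 are expressed by many cell types, and transcripts of several cell types differed between the libraries. The summed level of 14 macrophage genes was 6766 and 8213 FPKM in ApoE, 745.9 and 1187 in CKD, and 376 and 331 in Ctrl. By limma 13 of the 14 were called higher in ApoE than in Ctrl, where 44.1% of all genes were called. Among them were Gpnmb (6.98) and Lgals3 (6.16), while Mrc1 was not called but also lay above Ctrl without overlap. The summed level of 12 contractile genes was 775 and 677.5 FPKM in ApoE, 3950 and 6633 in CKD, and 9408 and 8448 in Ctrl. By limma all 12 were called lower in ApoE than in Ctrl, among them Myh11 (-4.26) and Cnn1 (-3.86). The part of these shifts in the S100 values was not tested.

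**Figure D2:**
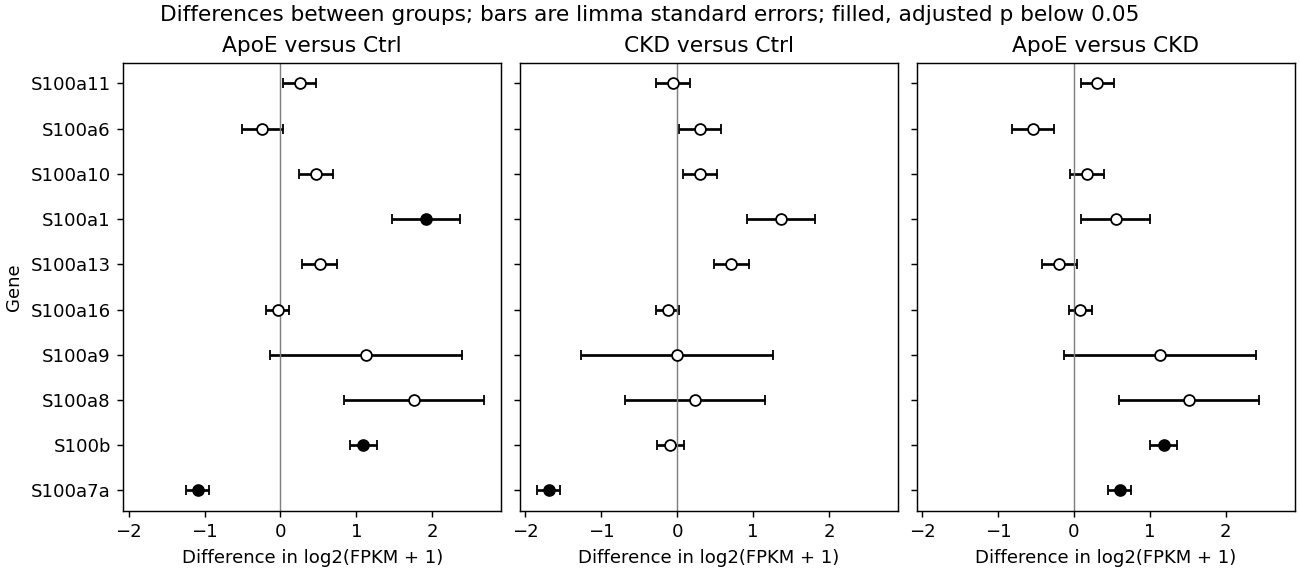
Differences in log2(FPKM + 1) with limma standard errors for 8 members and the related genes S100b and S100a7a in the 3 comparisons; filled points have an adjusted p below 0.05. S100a1 is filled in ApoE versus Ctrl only, S100a7a in all 3 panels, and the bars of S100a8 and S100a9 are the widest.

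S100a1 and S100a13 are neighbours on the chromosome, and for both all 4 disease libraries stood above both Ctrl libraries. S100a1 is best known from heart and skeletal muscle, where it tunes calcium release and uptake. It measured 239 and 446 FPKM in ApoE, 328 and 151 in CKD, and 76.5 and 95.9 in Ctrl, or 342 ± 146, 239 ± 125 and 86.2 ± 13.7 (mean ± SD, n = 2 each). The lowest disease library, CKD2, was above the highest Ctrl library, and ApoE and CKD overlapped. S100a1 rose in ApoE by 1.92 (SE 0.45, limma adjusted p = 0.0188). That call was lost without ApoE2 (1.47, limma adjusted p = 0.108), without Ctrl1 (1.76, 0.0977) and without Ctrl2 (2.08, 0.0628). In CKD the difference was 1.37 (SE 0.45, limma adjusted p = 0.115), and it was called without CKD2 (1.92, limma adjusted p = 0.0425). ApoE and CKD differed by 0.55 (SE 0.45, limma adjusted p = 0.375).

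S100a13 helps export proteins that lack a signal peptide, Fgf1 and Il1a among them. It measured 89.9 and 91.5 FPKM in ApoE, 129.9 and 83.0 in CKD, and 62.3 and 63.8 in Ctrl. The replicates agree closely in ApoE and in Ctrl, while CKD1 had 1.57 times the level of CKD2, and ApoE and CKD overlapped. The differences were 0.52 (SE 0.23, limma adjusted p = 0.119) for ApoE and 0.71 (SE 0.23, limma adjusted p = 0.111) for CKD against Ctrl. With the spread estimated without CKD1 or without CKD2 the ApoE difference was called (limma adjusted p = 0.0139 and 0.0142), and without CKD2 the CKD difference was too (1.03, limma adjusted p = 0.0211). Without CKD2 S100a13 was also called in ApoE versus CKD, at -0.51 (limma adjusted p = 0.0347), against -0.19 (SE 0.23, limma adjusted p = 0.542) with all libraries.

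S100a1 and S100a13 are transcribed away from each other from adjacent starts, S100a1 on the minus and S100a13 on the plus strand. In GENCODE M21 only 42 bases separate the outermost starts, and the RefSeq starts lie 104 bases apart. The stretch between the GENCODE starts (GRCm38.p6, chr3:90514393-90514434, plus strand, RefSeq sequence) is shown because it lies between a pair of members whose disease libraries all stood above Ctrl. It has a GC content of 54.8%. None of its letters is in capitals, since neither strand holds TATAAA (the TATA box), TTGCNNAA (the core bound by C/EBP factors), TGANTCA (the AP-1 motif) or GAGGAA (the core bound by PU.1 and other ETS factors).
S100a1_S100a13: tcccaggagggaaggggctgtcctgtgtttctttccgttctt

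Fat and mitochondrial transcripts were high in the same libraries as S100a1 and S100a13, but not they alone. The sums of macrophage, mast cell and mesothelial genes also stood higher in every disease library than in either Ctrl library. For 6 mast cell genes they were 62.0 and 60.9 FPKM in ApoE, 78.5 and 82.05 in CKD, and 29.45 and 41.5 in Ctrl. For 5 mesothelial genes they were 9.68 and 5.83 FPKM in ApoE, 60.0 and 46.8 in CKD, and 0.456 and 1.06 in Ctrl. The summed level of 8 adipocyte genes was 3132 and 3261 FPKM in ApoE, 7807 and 2593 in CKD, and 406.5 and 1015 in Ctrl. By limma 6 of the 8 were called higher in ApoE than in Ctrl, where 44.1% of all genes were called, led by Retn (3.10) and Adipoq (2.55). In CKD versus Ctrl 1 of the 8 was called higher, where 5.44% of all genes were called. Brown fat transcripts were present too, with Ucp1, the uncoupling protein of brown fat, at 236 and 147 FPKM in ApoE, 539 and 178 in CKD, and 26.3 and 77.4 in Ctrl. Mitochondrial reads made up 10.4% and 11.8% of the libraries in ApoE, 10.7% and 6.12% in CKD, and 3.36% and 4.49% in Ctrl. The summed level of 7 heart muscle genes was 12.0 and 12.1 FPKM in ApoE, 28.8 and 34.5 in CKD, and 8.13 and 7.85 in Ctrl. Of the 6 tested, 2 were called higher in ApoE than in Ctrl, Myl7 (1.64) and Myh6 (0.91), and 1 lower, Tnnt2 (-0.62). Of all genes 44.1% were called there. In CKD versus Ctrl the same 3 of 6 were called higher, where 5.44% of all genes were called. They differed by 2.98 for Myl7, 1.67 for Myh6 and 1.62 for Tnnt2. The summed level of 7 skeletal muscle genes was 3.11 and 3.33 FPKM in ApoE, 12.6 and 14.6 in CKD, and 46.7 and 54.8 in Ctrl. Most of the Ctrl sum was Casq1 alone, at 39.0 and 43.2 FPKM, against 0.611 and 0.621 in ApoE and 5.79 and 8.91 in CKD. Tnnt3 went the other way in CKD, at 5.00 and 4.07 FPKM against 2.73 and 3.84 in Ctrl, and was not called there. Of the 5 skeletal muscle genes tested, 4 were called lower in ApoE than in Ctrl, where 44.1% of all genes were called. The largest differences were in Casq1 (-4.70) and Tnnt3 (-1.22). Casq1 alone was called lower in CKD than in Ctrl (-2.36), where 5.44% of all genes were called. The part of RNA from these cell types and from mitochondria in the S100a1 and S100a13 values was not tested. The genes whose centred log2 profile over the 6 libraries lay closest to S100a1, among 7445 genes, were mt-Co2 (root mean square distance 0.118), Alas1 (0.148) and Coq8a (0.148), and closest to S100a13 were Samm50 (0.0411), Agpat3 (0.0688) and Ndufv3 (0.0751). mt-Co2 encodes a mitochondrial cytochrome oxidase subunit, Alas1 starts haem synthesis in mitochondria, Coq8a acts in coenzyme Q synthesis, Samm50 is a mitochondrial outer membrane protein, Agpat3 is an acyltransferase of phospholipid synthesis in the endoplasmic reticulum and Ndufv3 is a complex I subunit. These genes were picked by their profile, and no test of a shared function was made.

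**Figure D3:**
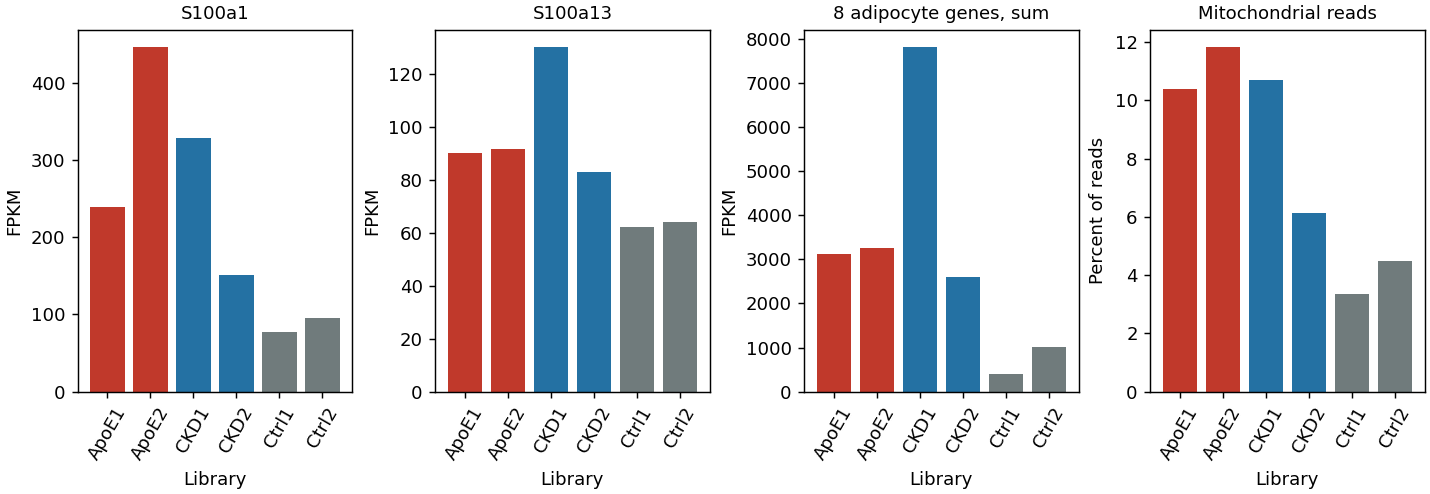
Bars give each library's S100a1 and S100a13 level and the summed level of 8 adipocyte genes, in FPKM, and the percent of reads from mitochondrial genes. All 4 measures are lowest in the 2 Ctrl libraries, and CKD1 exceeds CKD2 in each.

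S100a8 and S100a9 form calprotectin, a heterodimer that fills the cytosol of neutrophils and is also made by monocytes. Both were low and differed several-fold between the libraries of one group, and neither was called in any comparison. S100a8 measured 16.8 and 4.65 FPKM in ApoE, 0.974 and 5.19 in CKD, and 0.433 and 5.14 in Ctrl. These values rest on 186 and 48 reads in ApoE, 10 and 52 in CKD, and 5 and 54 in Ctrl. S100a9 measured 28.0 and 4.12 FPKM in ApoE, 1.43 and 11.7 in CKD, and 1.27 and 12.7 in Ctrl, from 233 and 32 reads in ApoE, 11 and 88 in CKD, and 11 and 100 in Ctrl. The same libraries were high for both genes, ApoE1, CKD2 and Ctrl2, and the groups overlapped in every comparison. Between the replicates of one group S100a8 differed 3.62-fold in ApoE, 5.32-fold in CKD and 11.9-fold in Ctrl, and S100a9 differed 6.79-fold in ApoE, 8.19-fold in CKD and 9.99-fold in Ctrl.

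The differences in calprotectin genes had wide errors. S100a8 differed by 1.76 (SE 0.92, limma adjusted p = 0.171) in ApoE versus Ctrl, by 0.24 (SE 0.92, limma adjusted p = 0.885) in CKD versus Ctrl and by 1.52 (SE 0.92, limma adjusted p = 0.237) in ApoE versus CKD. S100a9 differed by 1.13 (SE 1.27, limma adjusted p = 0.498), -0.01 (SE 1.27, limma adjusted p = 0.999) and 1.14 (SE 1.27, limma adjusted p = 0.510) in the same comparisons. Without ApoE1 the S100a8 difference in ApoE versus Ctrl was 0.93 and that of S100a9 was -0.12, and without Ctrl1 they were 0.71 and -0.16.

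Most markers of neutrophils were scarce in all libraries, while 3 of them were more abundant in ApoE. Of 16 neutrophil genes, 7 stayed below 1 FPKM in every library, among them Ly6g, a surface protein of mouse neutrophils, at 0.266 FPKM in ApoE1 and 0 in the other 5, and Mpo, the granule peroxidase, at no more than 0.020. Their summed level was 43.2 and 23.7 FPKM in ApoE, 8.29 and 11.1 in CKD, and 3.45 and 11.7 in Ctrl, and in each group the library with more S100a8 and S100a9 was also the higher one here. Of the 8 tested, 3 were called higher in ApoE than in Ctrl, where 44.1% of all genes were called, so the share is near the background. They were Mmp8, neutrophil collagenase (1.94), Csf3r, the receptor of granulocyte colony-stimulating factor (2.93), and Lcn2, lipocalin 2 (2.21). In ApoE Mmp8 measured 4.71 and 2.77 FPKM, Csf3r 10.5 and 11.2, and Lcn2 15.9 and 3.36. Mmp8 and Csf3r passed the filter only through ApoE. Of 5 monocyte genes, 2 were called higher in ApoE than in Ctrl, where 44.1% of all genes were called. They were Ccr2 (1.39) and Ly6c2 (0.94), of which Ly6c2 passed the filter only through ApoE. The summed level of the 5 was 68.1 and 16.2 FPKM in ApoE, 8.45 and 18.4 in CKD, and 6.36 and 12.1 in Ctrl. Red cell genes summed to 323 and 1080 FPKM in ApoE, 161 and 213 in CKD, and 325 and 1248 in Ctrl. The library with more S100a8 and S100a9 had more red cell RNA in CKD (CKD2) and in Ctrl (Ctrl2), but less in ApoE (ApoE1). The part of these cells in the calprotectin values was not tested. Among the genes searched, the profiles closest to both genes were those of Cks2 (distance 0.521 to S100a8 and 0.776 to S100a9) and Plac8 (0.529 and 0.792). Isg15 followed for S100a8 (0.570) and Ifit3 for S100a9 (0.879). The search required an average level of 5 FPKM or more and left out S100 genes. All 16 neutrophil genes averaged less, so none could be found, and whether any lies closer was not tested. S100a8 and S100a9 could not be found for each other either.

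**Figure D4:**
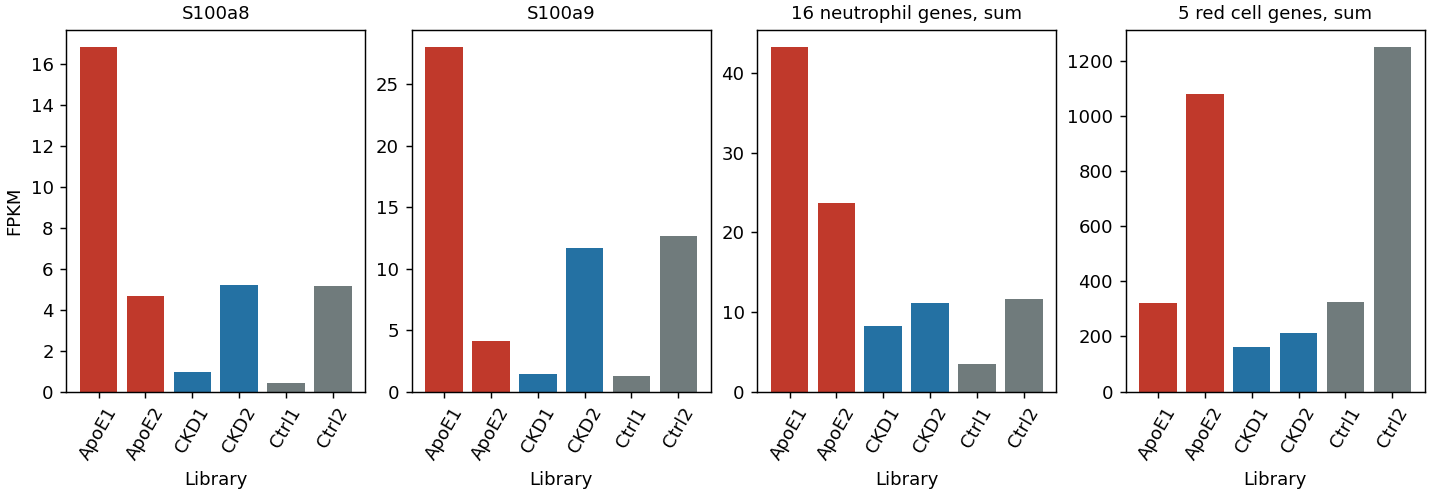
Bars give the FPKM of S100a8 and of S100a9 and the summed FPKM of 16 neutrophil and 5 red cell genes in each library. ApoE1, CKD2 and Ctrl2 are the higher library of their group for the first 3 measures. For red cell genes CKD2 and Ctrl2 are again the higher, while ApoE2 is above ApoE1.

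The upstream sequences of S100a8 and S100a9 are shown because the pair was high in the same libraries. The 250 bases before each RefSeq start (GRCm38.p6), chr3:90668821-90669070 on the plus strand for S100a8 and chr3:90695722-90695971 on the minus strand for S100a9, were searched for the same motifs. GENCODE M21 starts S100a8 further out, at base 90668978, so the last 93 bases of its window lie in the first exon of that annotation, which also set the exon length behind FPKM. For S100a8 the 157 bases before that start are shown (chr3:90668821-90668977), and for S100a9, whose window lies outside the GENCODE gene, all 250, each read 5′ to 3′ toward the gene. Capitals mark matches on either strand to these motifs, of which the C/EBP and PU.1 cores are bound by factors of the myeloid lineage.
S100a8: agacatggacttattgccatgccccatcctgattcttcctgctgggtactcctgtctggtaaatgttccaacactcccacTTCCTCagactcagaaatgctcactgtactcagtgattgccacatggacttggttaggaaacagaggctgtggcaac
S100a9: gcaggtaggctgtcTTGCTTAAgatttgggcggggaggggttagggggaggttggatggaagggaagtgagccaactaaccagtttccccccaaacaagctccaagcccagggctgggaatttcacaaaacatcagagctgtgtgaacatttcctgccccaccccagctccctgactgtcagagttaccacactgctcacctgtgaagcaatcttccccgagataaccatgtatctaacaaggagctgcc

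The S100a8 window holds the opposite strand of GAGGAA from 170 bases before the RefSeq start, and again from 36 bases before it, directly against a TATAAA from 30 bases before it. The nearer GAGGAA match and the TATAAA lie in the 93 bases not shown. The S100a9 window holds TTGCTTAA from 236 bases before the RefSeq start. Of 32851 RefSeq promoter windows of the same length, 12.4% hold TATAAA, 9.56% TTGCNNAA, 6.75% TGANTCA and 23.3% GAGGAA. No motif was matched in both windows.

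S100a4, a marker of fibroblasts and of motile cells that binds non-muscle myosin, could not be read from these values. It was listed at 0.215 and 0 FPKM in ApoE, 0 and 0 in CKD, and 0.103 and 0 in Ctrl, which is at most 2 reads in a library. It did not pass the filter and was not tested. S100a6, the next member along the chromosome, had 3144 to 6312 reads in the same libraries. S100a5, which lies between them and is not a member, had at most 1 read. Fibroblast transcripts were abundant. The 10 fibroblast genes summed to 1715 and 1049 FPKM in ApoE, 1379 and 2010 in CKD, and 2751 and 2410 in Ctrl. In GENCODE M21 a further gene on the same strand, Gm42674, runs across S100a4 and shares 302 of its 584 exon bases. Of the 303 coding bases of S100a4, 287 lie in exons of Gm42674. No value is listed for Gm42674. How the counting treated reads that fall in both genes is not given in the sources used here, and its part in the S100a4 values was not tested. No level or difference of S100a4 is drawn from the listed zeros. None of the other 8 members shares an exon base with another annotated gene.

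**Figure D5:**
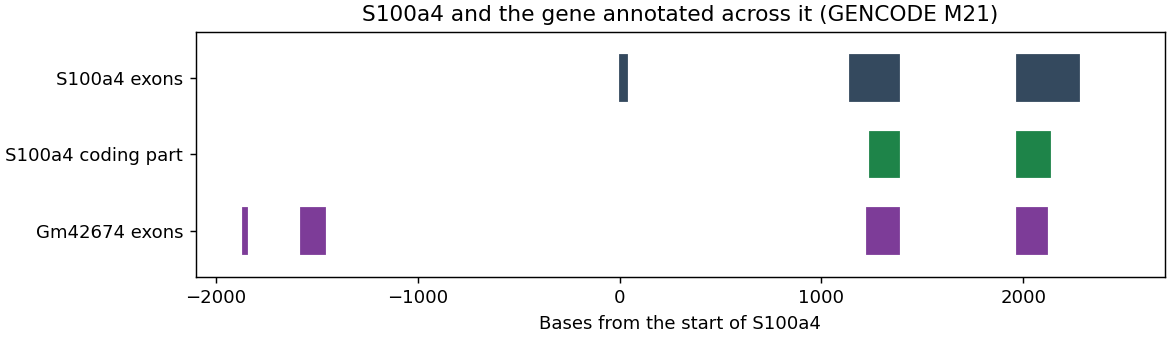
Exons of S100a4, its coding part and exons of Gm42674 in GENCODE M21, drawn to scale as bases from the start of S100a4. The Gm42674 exons cover 287 of the 303 coding bases.

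Among the S100 genes outside the 9, S100b and S100a7a were detected, while S100a3, S100a5, S100a14, S100g and S100z stayed below 1 FPKM in every library. No value was found under the symbol S100a7l2. S100b, a chromosome 10 gene known from Schwann cells and glia whose protein binds the receptor Ager, measured 9.47 and 12.6 FPKM in ApoE, 4.56 and 3.97 in CKD, and 4.13 and 5.12 in Ctrl. ApoE stood above both other groups without overlap, and CKD and Ctrl overlapped. S100b was higher in ApoE than in Ctrl by 1.09 (SE 0.18, limma adjusted p = 0.00538) and higher in ApoE than in CKD by 1.19 (SE 0.18, limma adjusted p = 0.00499), and both calls held in all 13 alternatives. CKD versus Ctrl differed by -0.09 (SE 0.18, limma adjusted p = 0.754). Of 7 Schwann cell genes 4 were tested. Mbp alone was called higher in ApoE than in Ctrl (1.57), where 44.1% of all genes were called. The summed levels of the 7 were 6.21 and 9.26 FPKM in ApoE, 10.2 and 7.42 in CKD, and 3.35 and 4.20 in Ctrl. Sox10, a defining factor of Schwann cells, reached no more than 0.248 FPKM. The part of Schwann cells in the S100b values was not tested.

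S100a7a, the mouse gene nearest to human psoriasin of the skin, was lower in both disease groups. It measured 1.28 and 1.12 FPKM in ApoE, 0.393 and 0.503 in CKD, and 4.02 and 3.36 in Ctrl, from 28 and 23 reads in ApoE, 8 and 10 in CKD, and 92 and 70 in Ctrl. The 3 groups did not overlap, with CKD lowest and Ctrl highest. S100a7a fell in ApoE by 1.09 (SE 0.15, limma adjusted p = 0.00297) and in CKD by 1.69 (SE 0.15, limma adjusted p = 0.0145), and ApoE exceeded CKD by 0.60 (SE 0.15, limma adjusted p = 0.0242). The group means stood at 0.325 of Ctrl in ApoE and 0.122 in CKD, and the log2(FPKM + 1) scale understates these ratios at such levels. The fall in ApoE was called in all 13 alternatives, that in CKD in 7 of 14, with adjusted p between 0.0153 and 0.125, and the difference between ApoE and CKD in 6 of 13, with adjusted p between 0.0133 and 0.0922. In CKD versus Ctrl the call was lost with any library other than CKD2 left out, and between ApoE and CKD likewise.

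The partners of S100 proteins changed in ApoE in both directions. Of 20 receptors, annexins, targets and cargo proteins, 6 rose and 7 fell in ApoE versus Ctrl by limma, where 44.1% of all genes were called, with a median of -0.05 beside -0.07 over all genes. In CKD versus Ctrl 0 of 20 were called by limma, where 5.44% of all genes were, with 9 at an unadjusted p below 0.05, as 30% of all genes had, and a median of -0.12. In ApoE versus CKD 6 were higher and 4 lower, where 39.7% of all genes were called, with a median of -0.04. These proteins serve many roles beside S100 binding.

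Among receptors, Cd36, a fatty acid receptor that also binds calprotectin, measured 329 and 390.1 FPKM in ApoE, 262 and 125 in CKD, and 19.1 and 49.3 in Ctrl, a rise of 3.50 in ApoE versus Ctrl (SE 0.52, limma adjusted p = 0.00401). Cd36 is also abundant in adipocytes and macrophages. Tlr4, a receptor of calprotectin, measured 10.7 and 8.11 FPKM in ApoE, 3.72 and 6.04 in CKD, and 6.14 and 5.66 in Ctrl. It was higher in ApoE than in CKD (0.84, SE 0.23, limma adjusted p = 0.0318), with adjusted p between 0.0142 and 0.147 over 13 alternatives, and missed the threshold against Ctrl (0.58, SE 0.23, limma adjusted p = 0.0845). The call against CKD was lost with any library other than CKD2 left out. Ager, the receptor for advanced glycation end products, was low, at 1.67 and 0.911 FPKM in ApoE, 2.65 and 1.36 in CKD, and 0.561 and 0.555 in Ctrl, and was not called in any comparison. Nptn, neuroplastin, a receptor described for S100A8, was lower in ApoE than in Ctrl by limma (-0.76, adjusted p = 0.0426), a call lost under both other scalings of the libraries (adjusted p = 0.0567 and 0.0564), with no filter on low values (0.0860) and with any of the 4 libraries of those groups left out (adjusted p up to 0.174).

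Annexins split. Anxa1, Anxa2 and Anxa5 rose in ApoE versus Ctrl (1.22, 0.77 and 0.90), while Anxa6 and Anxa11 fell (-0.72 and -1.27). Anxa2, the partner of S100a10, measured 202 and 181 FPKM in ApoE, 84.2 and 121 in CKD, and 118 and 106 in Ctrl, and was higher in ApoE than in both other groups (limma adjusted p = 0.0335 against Ctrl and 0.0211 against CKD). The Anxa2 call against Ctrl was lost with any of the 4 libraries of those groups left out (adjusted p = 0.102 to 0.175) and with no filter on low values (0.0667), and whether Anxa2 and S100a10 differ in response was not tested. The calls of Anxa5 and Anxa6 against Ctrl were lost with the same 4 libraries left out in turn, and that of Anxa1 without ApoE2, Ctrl1 or Ctrl2, while that of Anxa11 held in all 13 alternatives. Ahnak, the giant protein that binds the S100a10 and Anxa2 complex, measured 45.0 and 34.9 FPKM in ApoE, 38.0 and 57.8 in CKD, and 83.5 and 78.0 in Ctrl, and fell in ApoE by 1.01 (SE 0.24, limma adjusted p = 0.0199), a call lost without ApoE2, Ctrl1 or Ctrl2.

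Targets of S100a1 and cargo of S100a13 were among the most changed of the list. Ryr2 and Atp2a2, the calcium release channel and calcium pump that S100a1 binds in muscle, were lower in ApoE than in Ctrl (-1.89 and -1.61, limma adjusted p = 0.000803 and 0.00189), where S100a1 was higher. The 12 contractile genes were lower there too (median -3.49), and the part of smooth muscle RNA in the Ryr2 and Atp2a2 values was not tested. Ryr2 measured 0.168 and 0.0678 FPKM in ApoE, 2.42 and 3.42 in CKD, and 2.98 and 3.30 in Ctrl. Atp2a2 measured 40.6 and 37.2 FPKM in ApoE, 73.7 and 101 in CKD, and 123 and 118 in Ctrl. Fgf1 and Il1a, both exported with S100a13, changed in opposite directions. Fgf1 measured 3.10 and 2.85 FPKM in ApoE, 16.1 and 20.9 in CKD, and 14.8 and 22.5 in Ctrl, a fall of 2.28 in ApoE (limma adjusted p = 0.000991). Il1a measured 4.99 and 10.8 FPKM in ApoE, 0.0685 and 0 in CKD, and 0.0609 and 0.0335 in Ctrl, a rise of 3.01 in ApoE on the log2(FPKM + 1) scale (limma adjusted p = 0.00128). Il1a passed the filter on low values only through ApoE, so it had to differ from groups near 0. The calls of Ryr2 and Fgf1 held in all 13 alternatives against Ctrl and against CKD. Kcnk3, a potassium channel whose surface transport S100a10 affects, measured 13.6 and 12.1 FPKM in ApoE, 23.6 and 7.02 in CKD, and 1.27 and 3.27 in Ctrl, with CKD1 above CKD2 as for the adipocyte genes. It rose in ApoE versus Ctrl (2.15, limma adjusted p = 0.0250). That call was lost without ApoE1, ApoE2 or Ctrl1, and with no filter on low values (limma adjusted p = 0.061). Cacybp was higher in ApoE than in CKD (1.07, limma adjusted p = 0.00380). Of these genes Nptn, Anxa2, Anxa11, Kcnk3, Atp2a2 and Il1a share 83 to 344 exon bases with a further annotated gene, so reads there cannot be assigned to either with certainty.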

How the data were processed

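The authors deposited 1 file of gene values per library, with Bowtie2 2.2.3, HISAT2 2.1.0, TopHat2 and build GRCm38 named in the submitters' processing notes. Of the counting tool and annotation nothing is said there (not given in the sources used here). No header or label names the unit, and the deposited values were taken as FPKM from their steps: multiplied by the exon lengths of GENCODE M21 (27730 of 27815 genes matched), 94.5% to 94.9% of values below 50 reads were whole within 0.05. In 5 files identifiers and values stood stacked in 1 column. The library kit, per the labels' protocols, marks no strand. Libraries of one group differed by 17.9 (Ctrl) to 68.5 (CKD) times the degrees of freedom in a chi-square over reads, so none is a copy of another.

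The scale was log2(FPKM + 1), and a gene entered (14074 did) when 2 or more libraries reached 1 FPKM. All 6 libraries entered one limma model of group means (limma 3.58.1, R 4.3.3, trend and robust). The design had named a count test in case of counts; FPKM need limma. The fit was tested on simulated data. The members, lists and rules were chosen with earlier results of these data known. Named were all S100 genes, the called partners with Ager, Tlr4, Anxa2 and Ahnak, for each cell type list described the 2 called genes with the largest differences, otherwise the 2 most abundant, and for each member the 3 genes (mean of at least 5 FPKM) with the nearest centred profile. S100 genes were left out of the search for nearest profiles. Acta2, Ucp1, Ly6g, Mpo, Mmp8, Tnnt2 and Sox10 were chosen after their values were seen. Fibroblast, red cell, mast cell and mesothelial lists are given as sums only. Alternatives were another pseudocount (0.1), no filter, 2 other scalings, only the libraries compared, another variance model, a replicate block and leaving out each library.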

Additional observations from a re-analysis of the deposited data

How the results depend on the processing

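The number of members called was 0 to 2 with a library left out for ApoE versus Ctrl, 0 to 2 for CKD versus Ctrl and 0 to 1 for ApoE versus CKD. It was 2 (S100a1 and S100a13) for ApoE versus Ctrl with only the libraries compared. Over all genes, the calls ran from 3021 to 7019 for ApoE versus Ctrl, from 0 to 2416 for CKD versus Ctrl and from 2914 to 5045 for ApoE versus CKD with a library left out. CKD versus Ctrl had 1 call without the filter and 1 with only the libraries compared. With 1 library left in a group, that library is assumed to vary like the other groups.

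Whether same-numbered libraries share anything beyond a number cannot be told from these values. Their deviations correlated at 0.0457 (ApoE and Ctrl), -0.233 (CKD and Ctrl) and -0.0966 (ApoE and CKD). A replicate block gave 46 genes for CKD versus Ctrl, 5159 for ApoE versus Ctrl and 4556 for ApoE versus CKD, with the same number of members called. Among the named genes it ended the calls of Anxa2 (limma adjusted p = 0.0651) and Nptn (0.0615) in ApoE versus Ctrl, of Apoe (0.0839) in CKD versus Ctrl, and of S100a7a (0.0507), Tlr4 (0.0576) and Anxa5 (0.0798) in ApoE versus CKD. A crossed replicate block, chosen after seeing the data, gave 1230 genes and 1 member, S100a1 (limma adjusted p = 0.0332), in CKD versus Ctrl.

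Signs turned for small or imprecise differences, none of them called in either setting. In ApoE versus Ctrl, S100a16 stood at 0.039 under median-ratio scaling, at 0.080 under scaling without mitochondrial and the 50 most abundant genes and at -0.14 to 0.059 with a library left out, and S100a9 at -0.16 to 2.43. In CKD versus Ctrl, S100a9 stood at 0.021 with a pseudocount of 0.1, at 0.017 and 0.030 under these scalings and at -1.30 to 1.29 with a library left out. The ranges with a library left out were -0.27 to 0.16 for S100a11, -0.030 to 0.63 for S100a6, -0.81 to 1.29 for S100a8, -0.22 to 0.034 for S100b, -0.41 to 0.11 for Anxa2 and -0.55 to 0.030 for Tlr4. In ApoE versus CKD they were -0.0080 to 1.11 for S100a1, -0.075 to 0.42 for S100a10, -0.51 to 0.13 for S100a13, -0.11 to 2.39 for S100a9 and -0.53 to 0.061 for Ahnak; S100a13 was called once, without CKD2. The cause was not tested. Among the other values of single genes under these alternatives, 723 kept direction and call, 85 lost a call and 14 gained one. Depth limits S100a8 and S100a9, which had as few as 5 and 11 reads in a library.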

Other observations

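The nearest profiles to the 4 widely expressed members were those of Antxr2 (distance 0.0328), Kpna4 (0.0521) and Tmod3 (0.0531) for S100a11, Jdp2 (0.0315), Cd109 (0.0780) and Sertad1 (0.0850) for S100a6, Snrpert (0.0689), Midn (0.0869) and Pid1 (0.0923) for S100a10, and Atp2c1 (0.0436), Cct3 (0.0440) and Med17 (0.0450) for S100a16. These distances describe 6 libraries, which differ in depth and in the transcripts of several cell types.

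The ratio of S100a9 to S100a8 was 1.67 and 0.886 in ApoE, 1.46 and 2.25 in CKD, and 2.93 and 2.46 in Ctrl. The lowest ratio belonged to ApoE2, with 32 reads of S100a9 and 48 of S100a8.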
